A study of Arabidopsis thaliana with 21 samples.

Results

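Aquaporin transcripts were followed in imbibing Arabidopsis thaliana seeds for 9 genes, 5 of the tonoplast intrinsic protein (TIP) group and 4 of the plasma membrane intrinsic protein (PIP) group. The genes were chosen by name, out of 37336 genes counted, and were TIP3;1 (AT1G73190), TIP3;2 (AT1G17810), TIP1;1 (AT2G36830), TIP1;2 (AT3G26520), TIP2;1 (AT3G16240), PIP1;1 (AT3G61430), PIP1;2 (AT2G45960), PIP2;1 (AT3G53420) and PIP2;7 (AT4G35100). The reference annotation lists some of them under older names, among them BETA-TIP, GAMMA-TIP, DELTA-TIP and PIP3. Whole wild-type seeds were sampled dry, or after imbibition for 6, 16 or 24 h with ethylene or with water, and each of the 7 groups held 3 libraries that the submitters call biological replicates. The accession of the wild type, the ethylene concentration, the dormancy of the seed lot and the light during imbibition were not given in the labels, and the labels record the water seeds as untreated. All values below rest on 20 of the 21 libraries, for a reason given with the libraries.

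Aquaporins are membrane channels that let water, and in some cases small neutral solutes, cross a membrane along its gradient. TIPs sit in the membrane of the vacuole and PIPs in the plasma membrane, so that together they set how easily water enters a plant cell and its vacuole. The TIP3 genes encode the seed forms, found in the membranes of protein storage vacuoles during seed maturation and early germination, whereas TIP1 and TIP2 forms are typical of the large central vacuoles of growing and mature cells. Among the PIPs, members of the PIP2 group form active water channels on their own in oocyte assays, while PIP1 members usually need a PIP2 partner to reach the plasma membrane.

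The upstream windows of 3 genes are shown, the TIP3 pair because its transcripts were lost with ethylene and PIP2;7 because its transcripts were gained. Each window is the 250 bases before the annotated start of the gene in RefSeq's TAIR10.1 assembly, read 5′ to 3′ on the + strand, with capitals marking matches to the RY motif CATGCA and to ACGTG, the core of the abscisic acid response element, on either strand. In the order of the lines, the windows are chr1:27521694-27521943, chr1:6129775-6130024 and chr4:16708111-16708360, and the genes that follow them are chr1:27521944-27523332, chr1:6130025-6131627 and chr4:16708361-16710407.
TIP3;1: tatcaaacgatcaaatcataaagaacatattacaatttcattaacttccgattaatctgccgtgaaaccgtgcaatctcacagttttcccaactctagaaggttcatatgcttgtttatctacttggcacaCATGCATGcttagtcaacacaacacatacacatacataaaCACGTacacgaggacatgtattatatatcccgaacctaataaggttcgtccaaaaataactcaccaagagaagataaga
TIP3;2: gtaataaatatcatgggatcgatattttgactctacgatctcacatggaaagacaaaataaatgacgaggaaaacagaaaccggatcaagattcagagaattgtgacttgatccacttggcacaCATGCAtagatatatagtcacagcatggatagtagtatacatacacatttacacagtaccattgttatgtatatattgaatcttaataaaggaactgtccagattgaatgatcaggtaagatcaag
PIP2;7: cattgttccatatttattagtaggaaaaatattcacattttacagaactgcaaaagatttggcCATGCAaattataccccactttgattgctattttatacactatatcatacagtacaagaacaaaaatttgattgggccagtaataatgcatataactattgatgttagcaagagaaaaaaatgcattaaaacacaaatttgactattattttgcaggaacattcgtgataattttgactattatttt
RY motifs are known binding sites of B3-domain seed regulators such as ABI3. In the order shown, the first window held 2 RY matches that overlap each other, starting 119 and 117 bases upstream, and 1 ACGTG core 79 bases upstream. The second held 1 RY match 126 bases upstream, and the third held 1 at 187 bases. An RY match was present in 8.43% of the 27443 windows of this length in the annotation and an ACGTG core in 22.9%. Among the other members, TIP1;2 and PIP1;1 held 1 RY match each and TIP1;1 held 1 ACGTG core. The G-box CACGTG, which contains the ACGTG core and was found in 6.49% of windows, matched no member. The GCC box GCCGCC, a target of ethylene response factors and found in 1.87%, was searched in the 9 windows and matched 1 of them, that of TIP1;2. The TIP3 pair shared the 17-letter stretch acttggcacaCATGCAt around the RY match. This stretch was in 2 of the 27443 windows, those of this pair. As it was read off these 2 windows, the count could not be lower and is a description only. It was the longest stretch shared by any of the 36 pairs of members, the next being 12 letters. A match describes letters only and does not say that a factor binds there.

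The 20 libraries held 12154732 to 22109880 reads, of which 94.3 to 97.4% fell on genes in the sense direction. One of the 3 libraries titled ethylene at 16 h, replicate 2, stood at the water levels and enters no result unless said. Scaled read counts are given as CPM, the count as a share of the scaled library size. That library had 2013 CPM of TIP3;1, where the other ethylene libraries at 16 h had 75.0 and 56.5 CPM on the same scale. For PIP2;7 it had 37.2 CPM, against 208 and 214 CPM in the other ethylene libraries. Its counts were compared with other libraries over the genes that reached a minimum summed read count. From each water 16 h library it differed by a chi-square of 1.43 to 3.97 per degree of freedom, where the other pairs of replicates gave 1.76 to 8.63. From the other ethylene 16 h libraries it differed by 366 and 398. Water 24 h replicate 3 was kept but stood apart in light-harvesting genes. The Rubisco genes RBCS1A, RBCS2B and RBCS3B did not stand apart, with 8961, 949 and 983 reads there. Replicate 2 of that group, of nearly the same scaled size, had 8830, 822 and 1028 reads. RCA did go with the light-harvesting genes, at 2785 reads in replicate 3 against 833 in replicate 2. The sum over 7 light-harvesting genes was 4.14 to 5.38 CPM in the ethylene 24 h libraries, against 288 CPM in that water library and 1.61 and 4.03 CPM in the other water libraries. The scaling factors were 1.03 to 1.37 in the imbibed libraries and 0.501 to 0.529 in the dry ones, so every comparison with dry seeds depends on the scaling. The median gene differed by a log2 of 0.10 between water 6 h and dry seeds as scaled here, and by 1.11 with library sizes alone. Between ethylene and water at 24 h it was 0.000882 as reported here, 0.23 with DESeq2's size factors and 0.35 with library sizes alone. As bulk RNA was measured, fewer cells of a type and less RNA per cell cannot be told apart. The seed label was checked with 8 storage protein, oleosin and EM genes, which summed to 160900 to 176900 CPM in dry seeds.

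In dry and water-imbibed seeds most aquaporin transcripts were those of the TIP3 pair, and after 24 h in ethylene nearly all came from other members of the family. Reads per kilobase of exon were summed over the 35 aquaporin genes of the genome and each class was given as a share of that sum, a measure within a library that does not depend on scaling between libraries. The TIP3 pair took 96.4% ± 0.111 in dry seeds (SD, n = 3). At 6 h it took 81.8% ± 1.13 in ethylene and 83.7% ± 0.605 in water. At 16 h its share was 21.4 and 17.1% in the ethylene libraries, against 92.6% ± 1.01 in water, and at 24 h it was 1.93% ± 0.314 in ethylene and 88.4% ± 0.770 in water (SD, n = 3 each). All other shares are of the same sum and are larger wherever that of the TIP3 pair is smaller, even with no change in level. PIP1;1, for example, was not called at 24 h, yet its share was 1.13% ± 0.0695 in ethylene and 0.319% ± 0.0219 in water (SD, n = 3 each). The shares below therefore describe the make-up of the family and not the size of a change. The PIP2 class took 32.2% in ethylene and 1.31% in water at 16 h, and 40.1% in ethylene and 2.85% in water at 24 h. The PIP1 class took 30.1% in ethylene and 4.23% in water at 24 h. The NIP class, whose members carry solutes such as boron or glycerol, took 17.0% in ethylene and 3.54% in water at 24 h. The SIP class of internal membranes took 10.1% in ethylene and 0.927% in water, while its 3 genes differed by 2.74-fold to 3.03-fold in level. The 9 genes together made up 98.9% of the family's reads per kilobase in dry seeds, and 59.9% in ethylene and 93.9% in water at 24 h.

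**Figure D1:**
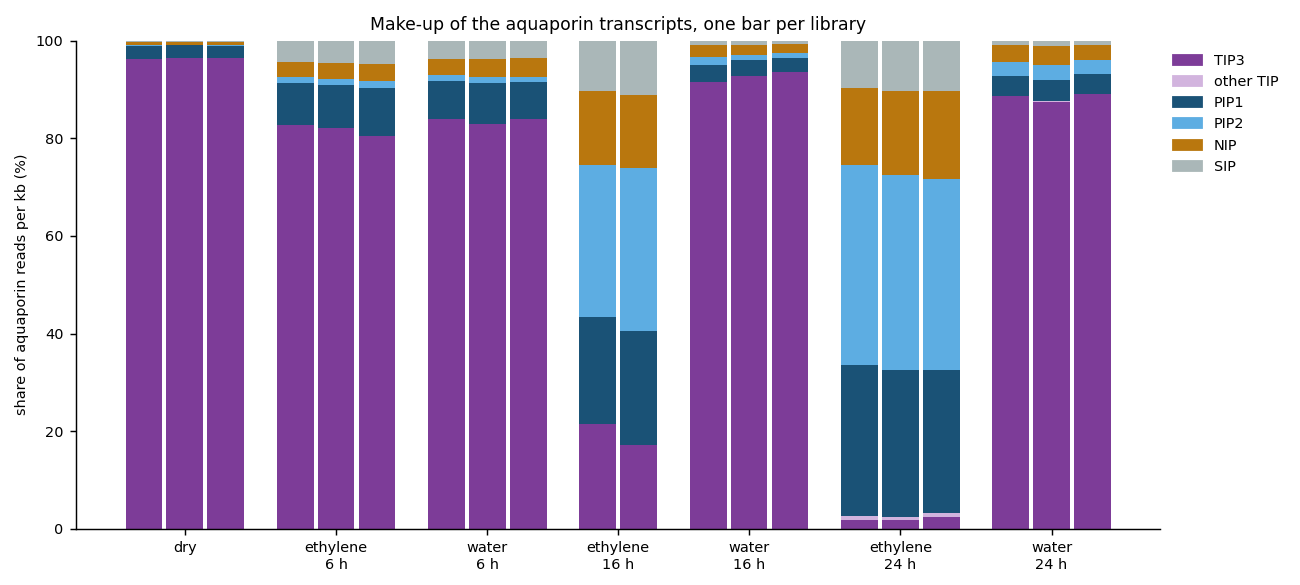
Share of each aquaporin class in the family's reads per kilobase of exon (y axis, percent), 1 bar per library, from dry seeds to 24 h. The TIP3 class fills 96.3 to 96.5% of the bars of dry seeds and 1.75 to 2.30% of those of ethylene at 24 h, and at 16 and 24 h the ethylene and water bars do not overlap in this class.

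TIP3;1 was the most abundant aquaporin per kilobase in dry seeds, in ethylene at 6 h and in water at every time. Its levels were 8247, 8259 and 8093 CPM in the dry libraries. At 6 h the libraries had 1179, 1117 and 1097 CPM in ethylene, against 1482, 1389 and 1547 CPM in water. The 6 h groups did not overlap, and both lay far below dry seeds. At 16 h ethylene seeds had 74.9 and 56.4 CPM, against 1845, 1991 and 2283 CPM in water seeds. After 24 h the values were 5.70, 5.34 and 7.28 CPM in ethylene, against 1443, 1334 and 1479 CPM in water. Thus every ethylene library at 16 and 24 h was under every water library, by more than the spread within either group. The log2 fold change of ethylene over water was -0.38 ± 0.08 at 6 h (± SE, edgeR adjusted p = 0.00067), -4.96 ± 0.11 at 16 h (adjusted p = 1.0e-27) and -7.86 ± 0.11 at 24 h (adjusted p = 2.0e-33), the last being 233-fold lower.

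TIP3;2, the second seed form, had 5911, 5601 and 5852 CPM in the dry libraries. At 6 h it had 186, 187 and 179 CPM in ethylene, against 194, 177 and 186 CPM in water. These 6 h ranges overlap, and the difference did not pass the test (log2 -0.01 ± 0.08, adjusted p = 0.99). At 16 h it had 40.1 and 32.4 CPM in ethylene, against 585, 651 and 751 CPM in water. After 24 h it had 4.94, 4.98 and 6.94 CPM in ethylene, against 673, 611 and 685 CPM in water. The groups were again apart at 16 and 24 h, with log2 fold changes of -4.19 ± 0.11 and -6.87 ± 0.11 (adjusted p = 1.9e-26 and 1.5e-32), and the gene was 117-fold lower in ethylene at 24 h. Keeping the left-out library, the 16 h differences were -1.52 for TIP3;1 and -1.45 for its partner and did not pass the test (adjusted p = 0.12 and 0.091). The 6 h difference of the first then had an adjusted p of 1. All 8 seed markers were also lower in ethylene at 24 h, with a summed level of 536 to 794 CPM in ethylene and 104400 to 115000 CPM in water, none of the 8 at 0. The part of storage tissue in the fall of the TIP3 pair was not tested.

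**Figure D2:**
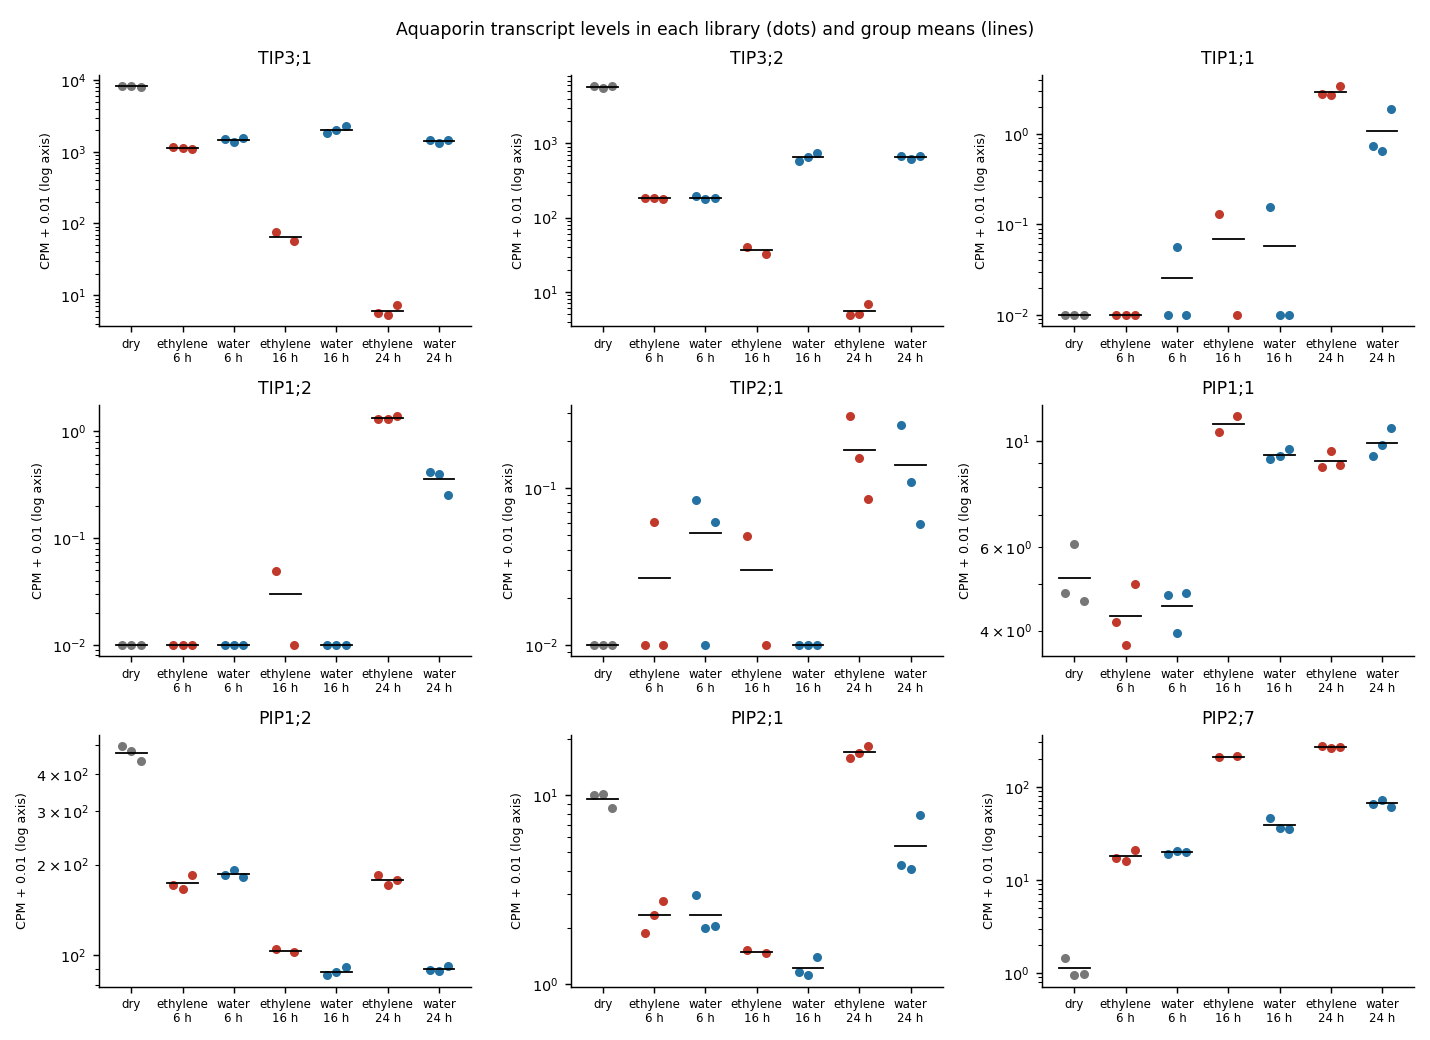
Level of each member in each library as CPM + 0.01 on a log axis, by group from dry seeds to 24 h, ethylene in red and water in blue. Dots are libraries and lines are group means. The TIP3 pair drops in ethylene at 16 and 24 h, and PIP2;7 climbs above its water level at the same times.

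Along imbibition in water the TIP3 pair fell by 6 h, stood higher again at 16 h and was still well below dry seeds at 24 h. Against dry seeds, water at 6 h was lower by a log2 of -2.48 ± 0.08 for TIP3;1 and -4.96 ± 0.09 for its partner (adjusted p = 7.0e-24 and 3.4e-31). Between 6 and 16 h in water the first rose by 0.47 ± 0.08 and the second by 1.84 ± 0.08 (adjusted p = 1.8e-06 and 2.5e-20). At 24 h against 16 h in water the first was lower again (-0.52 ± 0.08, adjusted p = 1.4e-06), while the second had a value of -0.01 ± 0.07 that did not pass the test (adjusted p = 0.91). In ethylene the pair was lower at each step. At 16 h against 6 h the log2 change was -4.11 ± 0.11 for the first and -2.34 ± 0.10 for the second (adjusted p = 2.3e-26 and 1.5e-20), and at 24 h against 16 h it was -3.43 ± 0.12 for the first and -2.69 ± 0.12 for the second (adjusted p = 5.9e-22 and 6.7e-19). Keeping the left-out library, the step to 16 h was -0.67 for the first and 0.40 for the second, neither called (adjusted p = 0.47 and 0.63). Against dry seeds, as scaled here, ethylene at 24 h was 1344-fold lower for the first and 1032-fold lower for the second. Water at 24 h was 5.78-fold and 8.82-fold lower. The log2 values in ethylene ran from -10.5 to -9.0 for the first and from -10.2 to -8.6 for the second over the alternatives. In water they ran from -2.6 to -1.5 and from -3.2 to -2.1. The alternative that keeps the left-out library is not in these ranges. In order of level the first ran from dry seeds through water 16, 6 and 24 h to ethylene 6, 16 and 24 h, with water 6 h and water 24 h not apart (adjusted p = 0.52). For the second, water 16 h was not apart from water 24 h, nor water 6 h from ethylene 6 h.

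The balance between the pair shifted as well. The ratio of TIP3;2 to TIP3;1 in reads per kilobase was 0.710 ± 0.0244 in dry seeds (SD, n = 3). It was 0.164 ± 0.00459 in ethylene and 0.127 ± 0.00524 in water at 6 h. At 16 h it was 0.538 and 0.578 in the ethylene libraries, against 0.326 ± 0.00646 in water. At 24 h it was 0.922 ± 0.0457 in ethylene and 0.465 ± 0.00430 in water. The second gene was thus the scarcer of the pair in all 20 libraries. At each time every ethylene library used had a higher ratio than every water library. The left-out library is not among them. In the fit that keeps it, it had 2013 CPM of TIP3;1 and 655 CPM of TIP3;2, both within the range of the water 16 h libraries. With 3 libraries in a group an exact permutation test cannot go below p = 0.10, and 2 libraries against 3 allow no less, so no p is given.

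**Figure D3:**
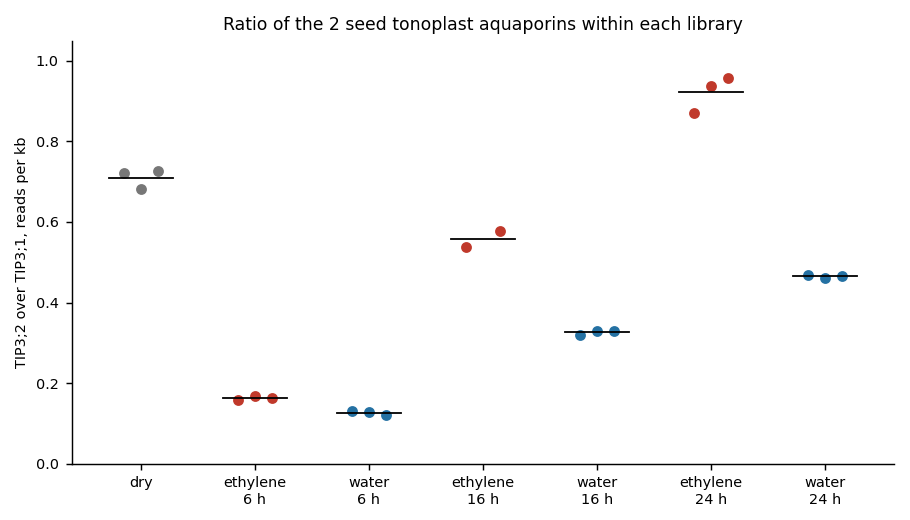
Ratio of TIP3;2 to TIP3;1 reads per kilobase (y axis) in each library, by group from dry seeds to 24 h. Dots are libraries and lines are group means. The ratio is lowest at 6 h, 0.164 in ethylene and 0.127 in water. At every time the ethylene libraries used lie above the water libraries, and the left-out library is not drawn.

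The vacuolar forms of growing cells were almost without reads until 24 h. TIP1;1 had 0 reads in dry seeds and in ethylene at 6 h, 1 read in water at 6 h, and 3 reads each in the ethylene and the water group at 16 h. At 24 h it had 80, 74 and 91 reads in ethylene, against 9, 13 and 38 reads in water. These are 2.94 ± 0.395 CPM in ethylene and 1.08 ± 0.682 CPM in water (SD, n = 3 each). The highest water value belongs to the library with light-harvesting transcripts. The log2 fold change was 1.39 ± 0.31 (adjusted p = 1.6e-04), and 2.12 without that library. Against 16 h, it was 51.0 times higher in ethylene at 24 h (95% counting interval 17.2 to 249) and 23.7 times higher in water (7.72 to 118), or 14.1 times (4.23 to 73.5) without that water library. TIP1;2, its close relative, had 38, 36 and 37 reads in ethylene at 24 h, against 5, 8 and 5 reads in water, and 1 read in all other libraries. These are 1.33 ± 0.0438 CPM in ethylene and 0.347 ± 0.0886 CPM in water (SD, n = 3 each), with no overlap between the groups. The gene passed the filter on low counts (0.522 CPM in at least 2 libraries) only through the ethylene 24 h libraries, so it had to be higher there, and its test is not given. This gene was not highest in the library with light-harvesting transcripts, at 0.245 CPM there and 0.403 and 0.393 CPM in the other water libraries.

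With no reads in dry seeds, folds over them are bounds against a floor of 3 reads over the dry group. They leave out the counting error of the 24 h reads. At 24 h TIP1;1 was at least 27.9-fold higher in ethylene and at least 10.7-fold higher in water than in dry seeds, or at least 6.38-fold in water without the library with light-harvesting transcripts. For TIP1;2 the bounds were at least 12.6-fold higher in ethylene and at least 3.22-fold higher in water. TIP1;1 passed the filter through the 24 h libraries of both ethylene and water, and neither gene through any earlier one. TIP2;1, a tonoplast channel that also carries ammonia, did not pass it and was not tested. It had 8, 4 and 2 reads in ethylene at 24 h, against 3, 2 and 1 reads in water, which overlap, and their ratio of 1.49 has a counting interval of 0.537 to 4.72. Elsewhere it had 1 read in ethylene and 2 in water at 6 h, 1 in ethylene and 0 in water at 16 h, and 0 in dry seeds. A difference between ethylene and water was therefore not detectable at this depth for this gene.

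**Figure D4:**
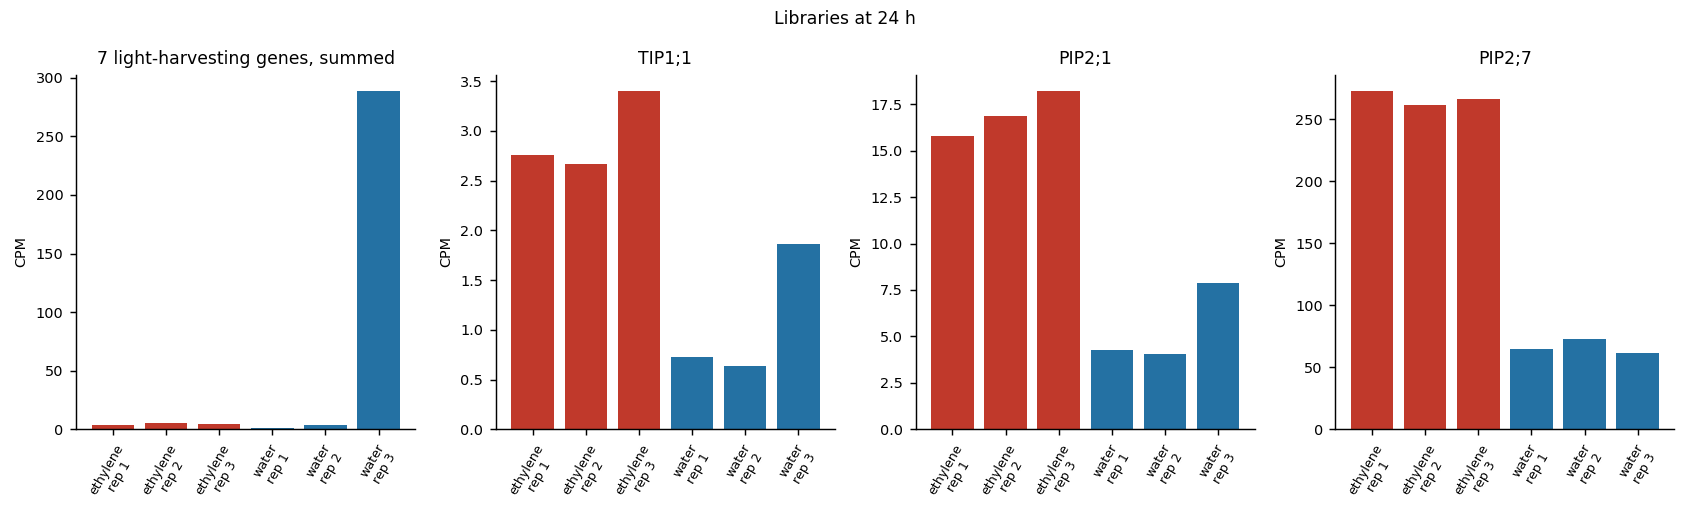
Summed CPM of 7 light-harvesting genes and CPM of TIP1;1, PIP2;1 and PIP2;7 (y axes) in each ethylene library (red, left) and each water library (blue, right) at 24 h. Water replicate 3 has 288 CPM of the light-harvesting genes and the highest values of the water group in the next 2 panels, but the lowest in the last.

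PIP1;2 was the main PIP1 transcript at every stage and was higher in ethylene at 16 and 24 h. The dry libraries had 493, 474 and 441 CPM. At 6 h the libraries had 171, 165 and 184 CPM in ethylene, against 185, 191 and 182 CPM in water, with overlap and no call (log2 -0.10 ± 0.05, adjusted p = 0.28). At 16 h the libraries had 105 and 103 CPM in ethylene, against 86.1, 87.9 and 91.3 CPM in water. The groups were apart by a small step, log2 0.23 ± 0.06 (adjusted p = 6.2e-04), or 0.18 with the left-out library kept (adjusted p = 0.033). At 24 h the libraries had 184, 172 and 178 CPM in ethylene, against 89.3, 88.9 and 92.5 CPM in water, a log2 fold change of 0.98 ± 0.05 (adjusted p = 4.9e-18). In water the log2 change was -1.34 ± 0.05 at 6 h against dry seeds and -1.07 ± 0.05 at 16 h against 6 h (adjusted p = 3.3e-22 and 6.3e-19), with 0.03 ± 0.05 and no call at 24 h against 16 h. In ethylene it was -0.74 ± 0.06 at 16 h against 6 h and 0.78 ± 0.06 at 24 h against 16 h (adjusted p = 1.3e-13 and 1.2e-13). Against dry seeds the change at 24 h was -1.40 ± 0.05 in ethylene and -2.38 ± 0.05 in water (adjusted p = 2.7e-23 and 1.0e-28). With library sizes alone it was -0.0022 in ethylene, with no call, and -1.33 in water. The change in water at 6 h against dry seeds ran from -1.46 to -0.33 over the alternatives, apart from keeping the left-out library. By level as scaled here, dry seeds stood alone on top. Water 6 h, ethylene 24 h and ethylene 6 h followed with no difference between neighbours.

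PIP1;1 was a minor transcript with no call between ethylene and water. It had 4.80, 6.06 and 4.61 CPM in dry seeds, and at 6 h 4.15, 3.72 and 4.99 CPM in ethylene, against 4.74, 3.94 and 4.79 CPM in water. The 6 h groups overlap, and their difference was -0.05 ± 0.13 (adjusted p = 0.93). At 16 h it had 10.4 and 11.3 CPM in ethylene, against 9.15, 9.29 and 9.63 CPM in water. Those groups do not overlap, yet the difference of 0.21 ± 0.11 missed the threshold (adjusted p = 0.078), and it passed with DESeq2's size factors (0.30, adjusted p = 0.015), with library sizes alone (0.47, adjusted p = 2.9e-04), in DESeq2's own test (0.30, adjusted p = 0.021) and in a fit of the compared groups alone (0.21, adjusted p = 0.045). After 24 h it had 8.80, 9.50 and 8.88 CPM in ethylene, against 9.27, 9.78 and 10.6 CPM in water, a log2 of -0.14 ± 0.10 (adjusted p = 0.22). The gene rose between 6 and 16 h by 1.34 ± 0.12 in ethylene and by 1.07 ± 0.12 in water (adjusted p = 8.8e-12 and 9.2e-10). Its decrease in ethylene at 24 h against 16 h, -0.26 ± 0.11 (adjusted p = 0.030), lost its call in most alternatives. Against dry seeds, water at 6 h gave -0.21 ± 0.15 with no call, but -0.34 with a call with DESeq2's size factors and 0.80 with a call when library sizes alone were used. In order of level, both groups at 16 h and both at 24 h stood above dry seeds and the 6 h groups, and within each of these sets no group differed from its neighbour in the order by the test.

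PIP2;7 was scarce in dry seeds and was the most abundant aquaporin per kilobase in ethylene at 16 and 24 h. The dry libraries had 1.46, 0.941 and 0.964 CPM. At 6 h the libraries had 17.3, 16.2 and 20.7 CPM in ethylene, against 19.1, 20.6 and 19.7 CPM in water, overlapping and without a call (log2 -0.13 ± 0.10, adjusted p = 0.54). At 16 h the libraries had 208 and 214 CPM in ethylene, against 46.4, 36.4 and 35.3 CPM in water. At 24 h the libraries had 272, 262 and 267 CPM in ethylene, against 65.0, 72.9 and 61.5 CPM in water. Ethylene was above water in every library at both times, by a log2 of 2.42 ± 0.08 at 16 h and 2.004 ± 0.07 at 24 h (adjusted p = 1.2e-23 and 5.7e-23), or 5.36-fold and 4.01-fold. With the left-out library kept, the 16 h value was 1.96 (adjusted p = 0.0042). In water the gene rose at each step, by 4.14 ± 0.21 at 6 h against dry seeds, 0.99 ± 0.09 at 16 h against 6 h and 0.76 ± 0.08 at 24 h against 16 h (adjusted p = 1.2e-09 at most). In ethylene it rose by 3.54 ± 0.08 at 16 h against 6 h and by 0.34 ± 0.07 at 24 h against 16 h (adjusted p = 2.7e-27 and 9.2e-05). Against dry seeds, whose libraries had 14, 9 and 9 reads, it was 236-fold higher in ethylene and 58.9-fold higher in water at 24 h, as scaled here. Over the alternatives, apart from keeping the left-out library, the log2 values ran from 7.86 to 9.27 in ethylene and from 5.77 to 6.92 in water. All neighbours in the gene's order of levels were apart except water 6 h and ethylene 6 h.

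The ratio of this PIP2 transcript to PIP1;2 in reads per kilobase was 0.00237 ± 0.000514 in dry seeds and 0.104 ± 0.00771 in ethylene and 0.106 ± 0.00271 in water at 6 h (SD, n = 3 each). At 16 h it was 1.98 and 2.07 in the ethylene libraries, against 0.445 ± 0.0809 in water. At 24 h it was 1.49 ± 0.0246 in ethylene and 0.735 ± 0.0775 in water. The ratio was above 1 in every ethylene library used at 16 and 24 h and below 1 in every other library used. In the fit that keeps it, the left-out library had 37.2 CPM of PIP2;7 and 94.2 CPM of PIP1;2.

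PIP2;1, a widely studied water channel of the plasma membrane, was low at 6 and 16 h and higher at 24 h. It had 10.01, 10.14 and 8.57 CPM in dry seeds, and at 6 h 1.87, 2.31 and 2.76 CPM in ethylene, against 2.96, 1.97 and 2.02 CPM in water. At 16 h it had 1.504 and 1.455 CPM in ethylene, against 1.16, 1.11 and 1.39 CPM in water, and neither time gave a call (log2 0.05 ± 0.24 and 0.27 ± 0.30, adjusted p = 0.98 and 0.42). The groups overlap at 6 h and not at 16 h. In water the log2 change was -2.09 ± 0.21 at 6 h against dry seeds and -0.87 ± 0.27 at 16 h against 6 h (adjusted p = 6.3e-11 and 0.0040). In ethylene at 16 h against 6 h it was -0.65 ± 0.27 (adjusted p = 0.026), a call lost with either other scaling, in DESeq2, and without ethylene 16 h replicate 1 or 3 or ethylene 6 h replicate 3 (adjusted p = 0.069, 0.097 and 0.12). After 24 h it had 15.8, 16.9 and 18.2 CPM in ethylene, against 4.27, 4.08 and 7.89 CPM in water. The water library at 7.89 CPM is the one with light-harvesting transcripts, and every ethylene library lay above it. The log2 fold change was 1.61 ± 0.15 (adjusted p = 9.4e-12), and 2.02 without that library. At 24 h against 16 h it rose by 3.51 ± 0.20 in ethylene and by 2.17 ± 0.23 in water (adjusted p = 3.2e-16 and 2.0e-09), the water value being 1.76 without that library. The part of leaf-type transcripts in the water value was not tested. The whole list of 13 leaf genes summed to 1605 to 1764 CPM in the ethylene libraries at 24 h with 0 to 3 genes at 0, to 959 CPM with 1 gene at 0 in that water library, and to 561 and 571 CPM with 4 and 2 genes at 0 in the other water libraries. Against dry seeds the gene was higher in ethylene at 24 h (0.82 ± 0.15, adjusted p = 8.2e-06) and lower in water at 24 h (-0.79 ± 0.18, adjusted p = 1.6e-04), but with library sizes alone the water value was 0.25 with no call. Without the water library rich in light-harvesting transcripts it was -1.20. In order of level, ethylene 24 h was followed by dry seeds and water 24 h, each apart from the next, then by the 6 h groups and the 16 h groups.

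Counted over the 9 genes, of which 8 were tested, ethylene against water gave 0 higher and 1 lower at 6 h, where 4.54% of all 19298 genes tested were called higher and 4.34% lower. At 16 h the count was 2 higher, 1 in each PIP group, and 2 lower, the TIP3 pair, beside 37.6 and 35.4% of all genes. At 24 h the count was 5 higher, both TIP1 genes, PIP1;2 and both PIP2 genes, and 2 lower, the TIP3 pair, beside 41.3 and 41.3% of all genes. The 5 include TIP1;2, whose call follows from how it passed the filter and is no support. Likewise, the counts of 24 h against earlier times or dry seeds below include both TIP1 genes, which passed only through 24 h libraries. Shares as near to those of all genes as these are no result about the members. In water at 6 h against dry seeds, 1 member was higher and 4 lower, beside 40.6 and 34.5% of all genes. At 16 h against 6 h in water, 4 were higher and 2 lower (38.9 and 37.3% of all genes), and at 24 h against 16 h, 4 were higher and 1 lower (24.4 and 20.1%). In ethylene these steps gave 2 higher and 4 lower (39.6 and 41.2%), then 5 higher and 3 lower (28.8 and 41.1%). Over dry seeds, 5 were higher and 3 lower in ethylene at 24 h (48.2 and 42.4%), and 4 were higher and 4 lower in water at 24 h (47.3 and 37.5%), the dry libraries being shared by both.

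**Figure D5:**
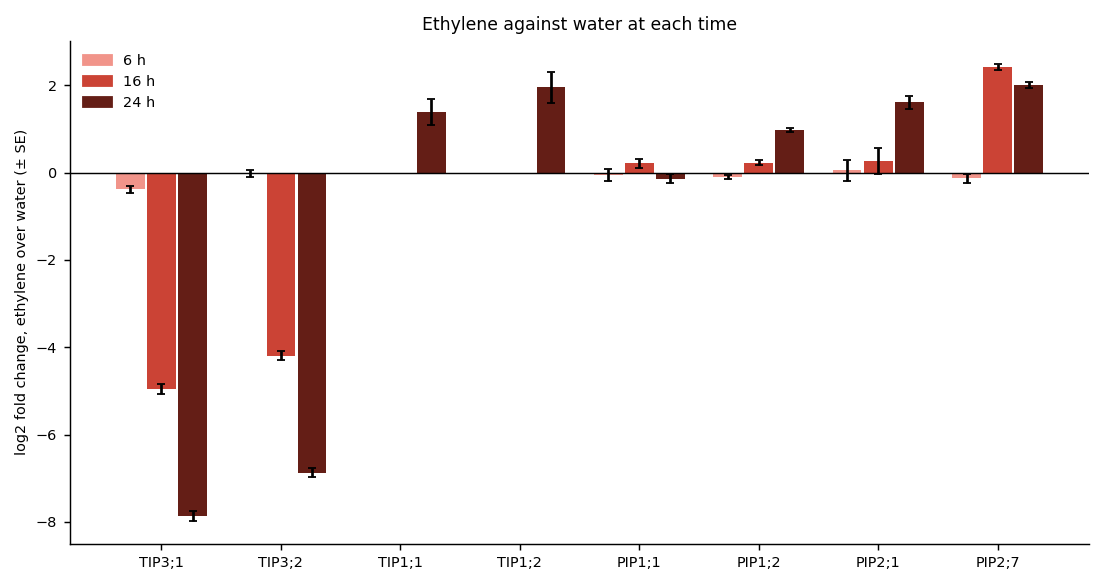
Log2 fold change of ethylene over water (y axis) for each tested member at 6, 16 and 24 h, with bars for the estimate and whiskers for ± 1 SE. The TIP1 genes have no bar at 6 and 16 h, where both groups had 3 reads or fewer. The bar of TIP1;2 at 24 h is of the gene that passed the filter only through ethylene, and is no support. The TIP3 pair reaches -7.86 and -6.87 at 24 h, and PIP2;7 is higher in ethylene by 5.36-fold at 16 h and 4.01-fold at 24 h.

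The difference between ethylene and water itself changed with time for 5 of the 8 members tested. From 6 to 16 h it changed by a log2 of -4.58 ± 0.13 for TIP3;1, -4.18 ± 0.13 for TIP3;2, 2.55 ± 0.13 for PIP2;7 and 0.33 ± 0.08 for PIP1;2 (interaction terms, adjusted p = 3.6e-04 at most), 2 of the members being called higher and 2 lower beside 28.6 and 30.9% of all genes. At 24 h against 16 h it moved on by -2.90 ± 0.14 and -2.68 ± 0.14 for the TIP3 pair in the same order, and by 0.75 ± 0.08 for PIP1;2 and 1.34 ± 0.34 for PIP2;1 (adjusted p = 0.0018 at most), the last being 1.75 without the water library rich in light-harvesting transcripts. For PIP2;7 it changed by -0.42 ± 0.10, a smaller difference than at 16 h (adjusted p = 0.0016). That value was -0.27 with no call in DESeq2. Here 2 members were called higher and 3 lower, beside 10.7 and 30% of all genes.

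For each tested member, 2 genes with the most similar course over the 20 libraries were sought among 8103 genes with a symbol, by the root mean square difference of centred log2 CPM. The libraries share their groups and scaling, so a small difference is a description only. TIP3;1 was closest to OLEO1, an oleosin of seed oil bodies (0.30), and to a late embryogenesis abundant gene, AT2G21490 (0.32). TIP3;2 was closest to UP6 (0.38) and ATOEP16-2 (0.39). TIP1;1 was closest to KCS3 (0.37) and GPAT8 (0.42), and TIP1;2 to sks15 (0.22) and GH9C3 (0.26). Both TIP1 genes had few or no reads before 24 h, so that part of their course lies at the floor. PIP1;1 was closest to MINE1 (0.14) and NIT1 (0.17), PIP1;2 to ACHT2 (0.20) and NF-YB10 (0.21), and PIP2;7 to MVD1 (0.35) and UGT73B2 (0.35). PIP2;1 had no gene closer than LHCA4, a light-harvesting gene (0.52), and PCR2 (0.56). The water 24 h library rich in light-harvesting transcripts enters this match, and the match was not sought without it. Between members, the closest pairs were the TIP1 genes (0.65), which both had 0 reads in 11 of the 20 libraries, and the TIP3 pair (1.01).

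Of the other 26 aquaporin genes 14 were tested, and at 24 h 9 were higher and 3 lower in ethylene than in water, with a median log2 of 1.51 beside 0.000882 for all genes and beside 41.3% of all genes called each way. TIP4;1, 1 of the 9, passed the filter only through the ethylene 24 h libraries, so the count and the median are descriptions. At 16 h 8 were higher and 4 lower (median 1.09), beside 37.6 and 35.4% of all genes, and at 6 h 1 was higher and 1 lower, beside 4.54 and 4.34%. At 24 h PIP1;3 had 44.1 ± 0.323 CPM in ethylene and 9.97 ± 0.805 CPM in water, and PIP2;8 had 35.2 ± 2.32 CPM in ethylene and 8.33 ± 0.534 CPM in water (SD, n = 3 each), 4.47-fold and 4.21-fold higher. NIP1;1, a channel known to pass arsenite, was 3.31-fold higher, and the 3 SIP genes were 2.74-fold to 3.03-fold higher. PIP1;5 was 3.85-fold lower, with 3.15 ± 0.194 CPM in ethylene and 12.1 ± 1.12 CPM in water. PIP2;2 was 4.18-fold higher, but it shares 14.7% of its 50-base windows with its neighbour PIP2;3, so its counts are uncertain. No member shared such a window with another aquaporin gene. With either other scaling 10 of the 14 were higher and 3 lower.

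Water flow into vacuoles follows solutes that proton pumps help to load, so the pumps were listed beside the channels. Of 26 genes of the vacuolar proton pumps 25 were tested, and 17 were higher and 5 lower in ethylene than in water at 24 h (median log2 0.82), beside 41.3% of all genes each way. With library sizes alone 20 were higher and 1 lower. VHP1, the vacuolar pyrophosphatase, had 2008 ± 36.9 CPM in ethylene and 616 ± 28.3 CPM in water (SD, n = 3 each), 3.26-fold higher, and the V-ATPase subunit genes VHA-E3 and VHA-G2 were 4.41-fold and 4.17-fold higher. Of 10 genes of the plasma membrane proton pumps 8 were tested, and 2 were higher and 6 lower at 24 h (median log2 -0.71), again beside 41.3% each way, or 2 higher and 5 lower with library sizes alone. AHA2, a main plasma membrane pump of roots, had 502 ± 25.3 CPM in ethylene and 123 ± 11.5 CPM in water, 4.08-fold higher, whereas AHA4 was 5.30-fold and AHA11 3.50-fold lower. ABI3, the seed regulator that binds RY motifs, had 69.1 ± 1.72 CPM in ethylene and 404 ± 14.9 CPM in water at 24 h (SD, n = 3 each), and was lower by a log2 of -2.55 (adjusted p = 7.9e-30). At 6 and 16 h the log2 difference was -0.38 and -0.99. In water at 24 h the gene was higher than in dry seeds by 0.71, as scaled here. Its bearing on the members was not tested.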

How the data were processed

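RNA was measured by stranded polyA sequencing, read from 1 end, in 21 seed libraries, grouped by their titles. The authors deposited read counts per gene for either strand, the forward and the reverse direction, per the file headers. They were made with STAR on TAIR10, per the submitters' processing notes, with no version or annotation release in the sources used here. The reverse counts, which hold the sense reads of this kit, were used, and lines that name no gene (0.0776 to 2.78% of reads each) were left out. The TIP3 pair and TIP2;1 overlap antisense genes, and forward reads made up at most 0.675% of any member's reads.

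One edgeR 4.0.16 quasi-likelihood fit (R 4.3.3, TMM scaling, default filter with minimum count 10, no replicate block) covered 20 libraries and 19298 genes, without TIP2;1, which failed the filter. Tests were 2-sided with Benjamini-Hochberg adjustment over all genes tested, called at an FDR of 0.05, and CPM are on the scale of that fit. The SE was taken as the log2 fold change over the square root of F. The fit was also run on simulated counts in which a small set of genes changed, equally up and down, in ethylene at 24 h only. Most genes of these data were called at that time, so the simulation says nothing on the scaling. Folds on 1 to 3 counts carry a 95% exact interval, which covers counting error only. Against 0 counts a floor of 3 counts per group was used, which leaves out the counting error of the other group. Values per kilobase use exon lengths of RefSeq's TAIR10.1, whose locus tags matched 37051 of 37336 genes. The counts carry no coordinates, so none were carried between builds. Promoter windows came from that assembly. Likeness is the root mean square difference of centred log2 CPM.

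Named genes were all 9 members, up to 8 other aquaporins and up to 3 genes of each proton pump list with the largest change at 24 h among those called and averaging at least 1 CPM, 2 most similar genes per member, VHP1, AHA2 and ABI3. The members and lists were chosen with earlier results of these data known. Alternatives were scaling (DESeq2 size factors, library size only), the DESeq2 1.42.0 test, no filter, counts on either strand, an FDR of 0.01, a replicate block, the compared groups alone, keeping the left-out library, and leaving out each library. Replicate numbers were not used to pair samples, save in the replicate block.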

Additional observations from a re-analysis of the deposited data

Results flagged for a closer look

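The size of the ethylene response differed between times for 5 of the 8 members tested. The difference itself was tested in the edgeR fit of all 7 groups. Of all genes tested, 28.6% were called higher and 30.9% lower in this difference at 16 h against 6 h. At 24 h against 16 h the shares were 10.7 and 30%. The count of 5 is therefore no result about the members. At 16 h against 6 h the log2 difference between ethylene and water changed by -4.58 for TIP3;1, -4.18 for TIP3;2, 0.33 for PIP1;2 and 2.55 for PIP2;7. At 24 h against 16 h the changes of these 4 were -2.90, -2.68, 0.75 and -0.42 in the same order, and that of PIP2;1 was 1.34. All of these rest on 2 ethylene libraries at 16 h. Keeping the third library labelled ethylene at 16 h, none of the changes at 16 h against 6 h passed the test: in the same order they were -1.13, -1.44, 0.29 and 2.09 (adjusted p = 0.48, 0.30, 0.095 and 0.065).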

How the results depend on the processing

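Most of the members' log2 changes kept their direction and call. Outside the repeats that left out 1 library, 815 did so, 25 lost a call, 6 gained one and 4 reversed: keeping the left-out library, TIP3;2 in ethylene at 16 h against 6 h (0.40) and the change of the ethylene response of PIP2;7 at 24 h against 16 h (0.054), and with library sizes alone, PIP1;1 in water at 6 h (0.80) and PIP2;1 in water at 24 h (0.25), both against dry seeds. Values called in neither setting count as kept. The causes were not tested, except that library sizes alone shift the median gene against dry seeds by over 1 on the log2 scale. Depth limits TIP2;1 at all times and the TIP1 genes before 24 h.

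Counts that moved by over 1.5 times were these. With an FDR of 0.01, 570 genes were higher and 557 lower at 6 h in ethylene than in water (877 and 837 as reported), and 1354 had a higher response at 24 h than at 16 h (2071 as reported). Keeping the left-out library, 128 genes were higher and 75 lower at 6 h with 0 members lower. At 16 h 0 members and 4304 genes were lower. In water at 24 h against 16 h 1922 genes were higher and 1603 lower with 0 members lower. In ethylene at 16 h against 6 h 2 members were lower. The response at 16 h against 6 h had 143 genes higher and 60 lower with 0 and 0 members, and that at 24 h against 16 h 1269 genes higher. That last count was 3522 with DESeq2 size factors, 3267 with either strand, 3322 with the compared groups alone and 3207 in DESeq2, whose count of lower genes was 3676 (5785 as reported). With library sizes alone, water at 6 h against dry seeds had 2 members and 13120 genes higher and 2920 genes lower, water at 24 h against dry seeds 13954 genes higher and 3419 lower, and ethylene at 24 h against dry seeds 4162 genes lower.

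Leaving out 1 library at a time, the count of genes higher at 6 h ran from 561, without ethylene 6 h replicate 3, to 731, and the members called kept their number except 3 to 4 lower in ethylene at 16 h against 6 h, 2 to 3 lower at 24 h against 16 h, and 3 to 4 lower in the response at 24 h against 16 h. PIP2;1 in ethylene at 16 h against 6 h lost its call without either ethylene 16 h library or ethylene 6 h replicate 3. Same-numbered libraries did not consistently deviate together, with correlations of -0.219 to 0.253 and 0 of 21 pairs of groups all over 0.1. Low correlations cannot exclude a pairing. With the replicate block no member's call changed, and TIP3;1 at 24 h was -7.86 in ethylene against water.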

Other observations

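NIP5;1, a boron channel singled out after its values were seen, took 9.20% ± 0.626 of the family's reads per kilobase in ethylene at 24 h and 0.981% ± 0.149 in water (SD, n = 3 each). Its level was 103 ± 7.98 CPM in ethylene and 42.2 ± 4.52 CPM in water, 2.43-fold higher, a smaller gap than in share, whose sum is mostly the TIP3 pair in water. The groups did not overlap.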
